A study of Mus musculus with 6 samples.

Results

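The regions described here were open in Th2 cells and called in no library of the other subsets. Peaks of 6 deposited lists of accessible chromatin on chromosomes 1 to 19 were joined where they overlapped or touched, which gave 225467 regions. A region counted as called in a library if 1 of its peaks overlapped it by at least 1 bp. The 6561 Th2-only regions were called in both Th2 libraries and in none of the 4 Th9 and Th17 libraries. They were therefore selected on the calls themselves, and their number and strength are a description with no test.

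The study made ATAC-seq libraries, in which the transposase Tn5 cuts into open chromatin, from 3 subsets of mouse helper T cells, with 2 libraries a subset numbered 1 and 3. All cells began as naive CD4+CD62L+ T cells of wild-type mice, labelled as C57BL6/J and spleen (the study's methods name lymph nodes too), and were stimulated through CD3 and CD28 in culture. Th2 cells received IL-4 and IL-2 with antibody against IFN-γ, and Th9 cells received the same with TGF-β1 added. Th17 cells received IL-6, TGF-β1, IL-23 and IL-1β, with antibodies against IFN-γ, IL-4 and IL-2. Th2-only regions thus contrast a culture with IL-4 and no added TGF-β1 against a culture with both and a culture in which IL-4 and IL-2 were blocked. The labels do not say whether libraries 1 and 3 came from separate mice, so differences between them may be technical.

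Th2 cells secrete IL-4, IL-5 and IL-13 and drive responses to parasites and allergens. IL-4 acts through STAT6 to raise GATA3, a zinc-finger transcription factor that binds words of the GATA type and directs the subset. Signals through the T cell receptor bring in AP-1 factors, and much of the regulation of helper T cell subsets lies in distal enhancers rather than at promoters.

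The sequences of 6 Th2-only regions are shown because each was the strongest at a gene locus with several such regions whose central bases lay outside annotated exons. Each is the central 200 bases on the plus strand of GRCm38.p6, the assembly behind mm10, read from the RefSeq genome. Capitals mark GATA words (AGATAA or TGATAA, either strand) and AP-1 words (TGANTCA). The Gata3 region, chr2:9816160-9816359, lay 62.3 kb downstream of the nearest start and held 1 AP-1 word. The Gfi1 region, chr5:107694403-107694602, lay 29.8 kb downstream and also held 1 AP-1 word. The Mei4 region, chr9:81843382-81843581, lay 20.2 kb upstream and held 2 GATA words. The Pde4b region, chr4:102651836-102652035, the Elmo1 region, chr13:20280575-20280774, and the Peli1 region, chr11:21156002-21156201, held 1 marked word each.
Gata3: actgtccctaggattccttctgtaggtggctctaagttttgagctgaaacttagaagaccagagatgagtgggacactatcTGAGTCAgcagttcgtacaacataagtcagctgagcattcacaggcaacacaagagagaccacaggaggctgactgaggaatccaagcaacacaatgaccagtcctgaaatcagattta
Gfi1: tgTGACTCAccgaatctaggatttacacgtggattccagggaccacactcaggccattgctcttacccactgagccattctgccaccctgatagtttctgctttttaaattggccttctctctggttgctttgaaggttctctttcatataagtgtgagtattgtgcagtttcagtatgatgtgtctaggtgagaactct
Mei4: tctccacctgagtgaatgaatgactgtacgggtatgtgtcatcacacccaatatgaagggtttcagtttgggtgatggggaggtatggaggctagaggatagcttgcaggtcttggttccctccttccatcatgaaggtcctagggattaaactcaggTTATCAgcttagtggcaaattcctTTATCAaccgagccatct
Pde4b: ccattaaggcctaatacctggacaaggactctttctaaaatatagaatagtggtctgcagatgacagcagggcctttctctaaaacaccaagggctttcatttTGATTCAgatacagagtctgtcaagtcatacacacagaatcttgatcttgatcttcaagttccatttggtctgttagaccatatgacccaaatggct
Elmo1: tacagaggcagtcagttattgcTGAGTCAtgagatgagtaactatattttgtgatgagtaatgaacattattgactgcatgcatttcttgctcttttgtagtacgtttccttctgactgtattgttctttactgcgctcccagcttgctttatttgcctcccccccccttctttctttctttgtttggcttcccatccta
Peli1: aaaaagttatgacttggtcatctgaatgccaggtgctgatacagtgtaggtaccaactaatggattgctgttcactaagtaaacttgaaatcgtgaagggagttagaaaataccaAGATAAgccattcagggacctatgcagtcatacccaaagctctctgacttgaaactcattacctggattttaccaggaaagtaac

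A further 3 sequences are those of the strongest Th2-only regions outside exons whose central 200 bases held both a GATA and an AP-1 word, shown for the spacing of the words. All were in introns, downstream of the nearest start. The first lay by Nmrk1, chr19:18644291-18644490, the next by Apbb1ip, chr2:22822435-22822634, and the last by Dync2h1, chr9:7180800-7180999.
Nmrk1: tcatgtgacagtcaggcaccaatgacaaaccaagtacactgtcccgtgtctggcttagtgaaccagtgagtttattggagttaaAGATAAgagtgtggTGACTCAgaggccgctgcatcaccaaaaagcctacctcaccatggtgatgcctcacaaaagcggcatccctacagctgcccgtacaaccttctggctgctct
Apbb1ip: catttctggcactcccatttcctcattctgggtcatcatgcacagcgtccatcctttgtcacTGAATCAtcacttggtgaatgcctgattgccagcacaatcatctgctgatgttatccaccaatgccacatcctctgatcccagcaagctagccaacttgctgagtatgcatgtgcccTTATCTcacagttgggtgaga
Dync2h1: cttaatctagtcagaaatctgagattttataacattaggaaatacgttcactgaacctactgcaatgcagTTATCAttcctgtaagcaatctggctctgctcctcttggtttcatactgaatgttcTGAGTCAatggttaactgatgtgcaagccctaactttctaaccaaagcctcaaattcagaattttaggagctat
By contrast, the strongest Th2-only region of all, in an intron of Grk5, held neither word. Its central 100 bases, chr19:60924721-60924820, were a short purine-rich repeat, and every base of its central 300 bp was masked as repeat in the reference. Its fold enrichment was 20.1 in replicate 1 and 16.5 in replicate 3.
Grk5: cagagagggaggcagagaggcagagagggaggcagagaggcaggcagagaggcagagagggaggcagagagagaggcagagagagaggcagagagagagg

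The lists held 100317 to 142213 peaks, and the lowest fold enrichment listed ran from 1.71 to 2.11. They gave no read counts, so a share has no depth behind it and the intervals below are 95% Wilson intervals over regions, which cover counting error only. Of 6 Th2 marker genes, promoters of 5 and 6 were called in the Th2 libraries, 4 in each Th9 library and 3 in each Th17 library. The promoter of Il9, the 1 Th9 marker, was called in both Th9 and both Th2 libraries and in neither Th17 library. From genome browser tracks, the study describes the Il9 promoter peak as absent in Th2 and Th17 cells. A call in a peak list is another measure than such a track, and the strength of these Th2 peaks is not given. Of 3 Th17 markers, promoters of 3 were called in each Th17 library, 0 and 1 in the Th2 libraries and 0 in each Th9 library. Of 4 T cell markers, each Th2 library called 4 and the other libraries 3 or 4. Of 11 markers of other cells, promoters of 4 and 3 were called in the Th2 libraries and 2 or 3 in the other 4. Those markers included Ms4a1 and Pax5 of B cells, Cd14, Csf1r and Lyz2 of myeloid cells, Cpa3, Kit and Fcer1a of mast cells, and Ncr1 and Klrb1c of natural killer cells, and their part in the results below was not tested. The share of all protein-coding promoters called in each library is not given, so these marker counts have no background beside them. In bulk libraries, fewer cells with a region open and a less open region in each cell cannot be told apart.

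Th2-only regions made up 2.91% of all regions, against 1.35% for the 3051 regions called in both Th9 libraries alone and 1.55% for the 3484 called in both Th17 libraries alone. They were 7.43% of the 88320 regions called in both Th2 libraries. Almost all were a single peak in each library, since 6529 had 1 peak in Th2 replicate 1 and 1 in replicate 3. The median width was 459 bp, with 25th and 75th percentiles of 329 and 744 bp, while the regions that every library called were wider (median 1428 bp).

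Most were of modest strength. To compare lists, each fold enrichment over the genome-wide background was ranked within its own list and given as a percentile. A pair of percentiles or folds below gives replicate 1 first and replicate 3 second. Th2-only regions had a median percentile of 41.4 in replicate 1 and 40 in replicate 3, with median folds of 2.12 and 2.17. The 75th percentiles of the folds were 2.46 and 2.72, so that strong regions were a minority in both libraries. In all, 1835 regions (28%) were at or above the 50th percentile in both libraries, 259 (3.95%) at or above the 75th and 3 at or above the 90th. Across regions, the percentiles of the 2 Th2 libraries correlated with a Pearson r of 0.666 and a Spearman rank correlation of 0.661, given over 6561 regions that share these 2 libraries. The median of the mean percentile was 39.2, near that of Th17-only regions (39.7), above that of Th9-only regions (29.5) and well below that of regions called in all 6 libraries (74.4).

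**Figure D1:**
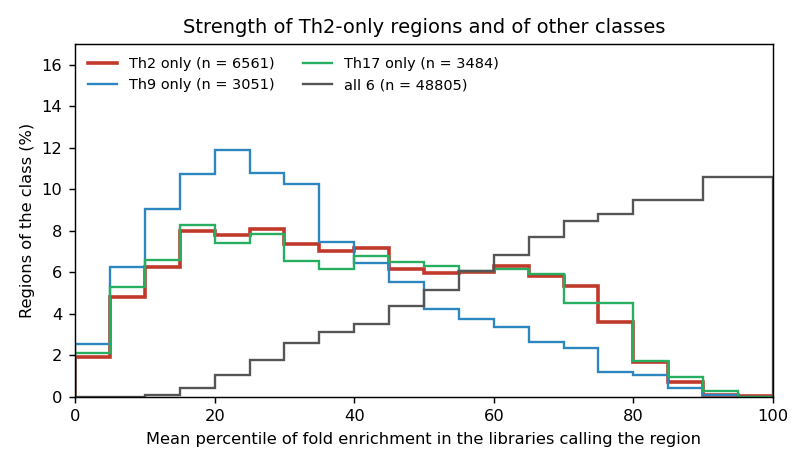
The horizontal axis gives the mean percentile of fold enrichment over the libraries that call a region and the vertical axis the percentage of each class. Th2-only regions (red, n = 6561) spread over the lower and middle range with a median of 39.2, and regions called in all 6 libraries (grey, n = 48805) pile up at the high end with a median of 74.4.

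Regions just beyond the rule had lower Th2 percentiles than the members. Another 7893 regions were called in both Th2 libraries and in exactly 1 other library, most often Th9 replicate 1 (2896) or Th17 replicate 1 (2645). Their median Th2 percentile was 35.0, and the lone call had a median percentile of 32.6. A further 29078 regions were called in 1 Th2 library and in no other, with a median percentile of 20.1. Of the members, 16 lay within 50 bp of a Th9 or Th17 peak, and 44 of the regions just outside were excluded by a peak that overlapped the Th2 peaks by under 50 bp. The median distance from a member to the nearest Th9 or Th17 peak was 3362 bp.

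The lowest listed fold differed between the lists. In Th9 replicate 1 it was 2.11, and 3916 members (59.7%) had a fold below that value in at least 1 Th2 library. That list was also the longest, with 142213 peaks, so its higher lowest fold does not mark a shorter list. The remaining 2645 members had folds at or above the lowest listed fold of every other library. Folds were not put on a common scale between libraries, so neither count says what another library would have called. Without Th2 replicate 1 the rule found 17825 regions and without Th2 replicate 3 it found 25288. Leaving out a library drops a condition of the rule, so a rise was fixed in advance.

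Calls of 1 replicate were also read in the other, which the choice had not used. Of 30247 regions called in Th2 and not in Th9 or Th17 among the replicate 1 libraries, Th2 replicate 3 called 30.4%, Th9 replicate 3 called 10.2% and Th17 replicate 3 called 9.95%. Over all regions called in exactly 1 replicate 1 library, Th2 replicate 3 called 20%. In the reverse direction, Th2 replicate 1 called 48.2% of 30292 regions chosen on replicate 3, against 26.4% for Th9 and 26.8% for Th17, and 37.3% of all regions called in exactly 1 replicate 3 library. With all lists cut to the length of the shortest, the Th2 shares were 40% and 39.2%, against 15.4% to 19.9% in the libraries of the other subsets. In the same cut lists, regions chosen for Th17 were called in the other Th17 library at 40.9% and 33.7%. Those chosen for Th9 were called in the other Th9 library at 23.2% and 22.5%. Such recurrence was thus not particular to Th2. These values have 1 library behind each and no test.

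Few Th2-only regions lay at promoters, taken as 1000 bp before to 100 bp after a start of a protein-coding gene. A promoter was touched by 85 of 6561 (1.3%, interval 1.05% to 1.60%), compared with 6.71% of all regions and 25% of regions called in all 6 libraries. The share was 1.35% in the 22893 regions called in exactly 2 libraries of different subsets, so a low promoter share was not particular to Th2-only regions. Introns held 40.8% of them and 33.0% of all regions, exons 6.42% and 6.13%, and intergenic sequence 51.5% and 54.1%. Th17-only regions had nearly the same make-up, with 1.26% at promoters and 41.2% in introns, and Th9-only regions had more in exons (11.3%). The centre of a Th2-only region was a median of 45947 bp from the nearest start, against 20215 bp for regions called in all 6 libraries and 92577 bp for those called in 2 libraries of different subsets. A start lay within 10 kb for 20% of Th2-only and 20.4% of all regions, at 10 to 100 kb for 47.8% and 42.4%, and beyond 100 kb for 32.3% and 37.2%.

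**Figure D2:**
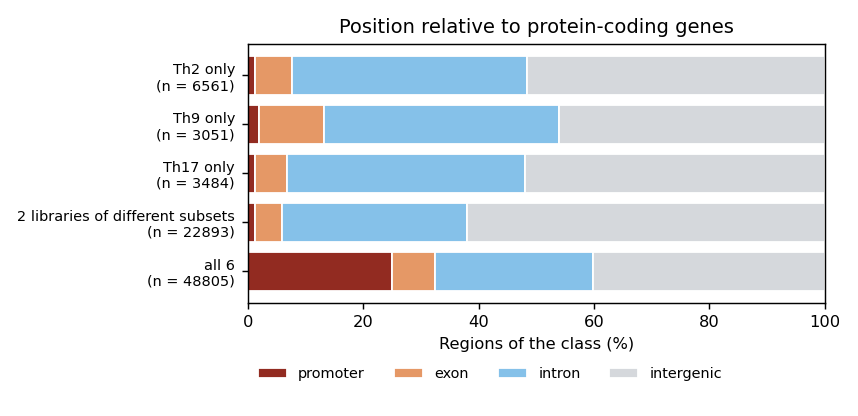
Bars give the percentage of regions of each class at promoters, in exons, in introns and between protein-coding genes. Promoters make up 1.3% of Th2-only regions and 25% of regions called in all 6 libraries.

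The few at promoters included Il13, which encodes the Th2 cytokine IL-13. That region, chr11:53634463-53634775, was centred 83 bp downstream of the start, at percentiles of 51.5 in replicate 1 and 71.1 in replicate 3. The strongest at a promoter, chosen after their values were seen, were by Cfap97 (76.3 and 80.3) and by Kif2c, a mitotic kinesin (77.4 and 76.9). Another, at percentiles of 55.1 and 71.4, was centred 210 bp upstream of a start of Itgax, which encodes the integrin CD11c.

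Position differed between strong and weak members. When the members were split by mean percentile into 4 equal groups, the share in introns was 29.3% in the weakest group and 48.7% in the strongest, and the intergenic share was 63.6% and 42.1%. The median distance to a start was 90119 bp in the weakest group and 29084 bp in the strongest, while the promoter share was between 1.16% and 1.46% in all 4 groups. The median GC content of the central 300 bp was 46.3% in the weakest group and 43.0% in the strongest, and the median share of repeat-masked bases was 25% and 13.5%.

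The members held GATA and AP-1 words in their central 300 bp more often than other regions of that window length. A GATA word was present in 31.5% of Th2-only regions (interval 30.4% to 32.6%), 17.7% of Th9-only regions, 22.2% of Th17-only regions, 16.9% of regions called in all 6 libraries and 21.4% of all regions. The AP-1 word was present in 23.4% (interval 22.4% to 24.4%), against 8.33%, 15.5%, 10.7% and 11.8% in the same classes. Both words occurred together in 8.03% of Th2-only regions and 2.90% of all regions, and at least 1 of them in 46.9% and 30.3%. Words were searched on both strands, and regions are not replicates, so these shares carry no test.

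Base composition differed between the classes and touches these shares. Th2-only regions had a median GC content of 45%, Th9-only regions 50.0% and regions called in all 6 libraries 50.7%. Among regions with a GC content above 40% and up to 45%, a GATA word was present in 35.1% of Th2-only regions, 24.1% of Th9-only, 26.9% of Th17-only and 30.4% of all regions, and the AP-1 word in 28%, 11.1%, 17.6% and 15.9%. The same GATA letters in reversed order, which keep the base composition, were present in 24.7% of Th2-only regions and 18.6% of all regions, and in that GC range in 27% and 25.8%. At like GC content the GATA word thus stood further above the background than its reversed letters did, and the AP-1 word stood further still.

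The other words were less frequent than GATA and AP-1 words in Th2-only regions. An IRF word (GAAANNGAA) was present in 11.2% of Th2-only and 7.61% of all regions, and an NFAT word (GGAAAAT) in 5.72% and 4.59%. A STAT word with a spacing of 4 bases (TTCNNNNGAA), the spacing that STAT6 is known for, was present in 8.87% and 6.55%, and with a spacing of 3 bases (TTCNNNGAA) in 9.53% and 8.6%. The 3-base spacing, which other STAT factors prefer, was most frequent among these classes in Th9-only regions (13.5%). IRF and STAT words can share their last 3 bases and are not independent counts. RUNX (TGTGGTT) was present in 7.91% and 7.10%, TCF (TTCAAAG) in 6.93% and 5.41%, an E-box (CAGCTG) in 14.8% and 16.4%, CACGTG in 2.93% and 4.13%, and a T-box word (TCACACC) in 4.24% and 4.61%. ETS (CGGAAGT) and CTCF (CCNNNAGGGGGC) were rare in Th2-only regions, at 0.533% and 0.274%, against 1.13% and 0.821% of all regions.

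The strongest members carried the words most often. A GATA word was present in 25.2%, 28%, 34.2% and 38.6% of the 4 groups from weakest to strongest, and the AP-1 word in 11.9%, 18.1%, 27% and 36.5%. Both words together were present in 3.23% of the weakest and 14.3% of the strongest group, while the reversed GATA letters were present in 26.6% and 25.4%. In the strongest group of Th17-only regions the shares were 18.7% for GATA and 22.8% for AP-1, and in that of Th9-only regions 21.2% and 13.2%.

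The AP-1 word was concentrated at the centre. In the strongest group of Th2-only regions it matched 19.1 times per 100 regions per 100 bp in the central 100 bp, against 3.89 in the outer 250 bp on either side of a 1000 bp window. In the weakest group the central and outer values were 3.66 and 3.73. GATA words of the strongest group were spread more evenly, with 18.4 at the centre and 15.2 outside, while in the weakest group the centre held fewer (10.3) than the outside (13.1). Over all members GATA words had no central excess, with 13.8 at the centre and 14.3 outside. Both values were above those of regions called in all 6 libraries (6.64 and 8.57), so the surrounding sequence held more GATA words too. In the strongest group of Th17-only regions the AP-1 word also peaked, at 9.53 against 3.56, and GATA words dipped at the centre, at 7.23 against 12.3.

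**Figure D3:**
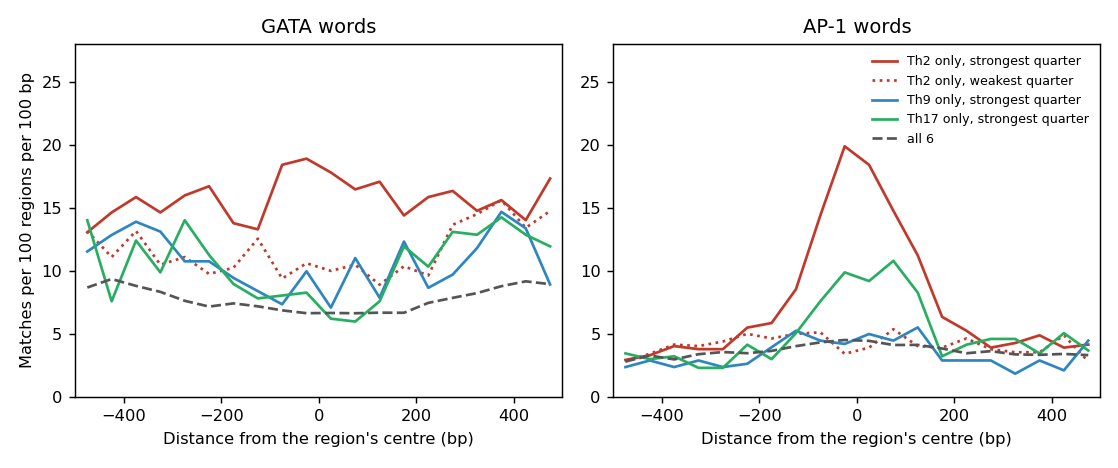
Matches per 100 regions per 100 bp in bins of 50 bp are plotted against the distance from the region's centre, GATA words on the left and AP-1 words on the right. The strongest group of Th2-only regions (solid red) stands highest in both panels, at 18.4 and 19.1 in the central 100 bp. Regions called in all 6 libraries (dashed grey) are longer, so their centre is a looser mark.

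Th2-only regions occurred close to each other. Members had 13121 neighbouring positions, counted on either side of each, and 820 of these (6.25%) held another Th2-only region. That was 2.15 times the 2.91% over all regions. A region between 2 members was counted once for each of them. Th9-only and Th17-only regions had ratios of 2.79 and 2.43, so such clustering was not particular to Th2. Another member lay within 10 kb of 14.6% of members and within 50 kb of 44.0%. When members with gaps of at most 25 kb were chained, 4681 stood alone, and 1880 (28.7%) were in chains, among them 666 pairs, 122 chains of 3 and 6 chains each of 5 and 6. Members in chains of 3 or more had a median mean percentile of 39.1 and those alone 38.7. The share of regions that were members ran from 1.83% on chromosome 8 to 3.89% on chromosome 10.

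The 6 chains of 6 members differed in strength. The chain before Mei4, which encodes a protein of meiotic recombination, spanned 47.1 kb at chr9:81799164-81846284, held 10 regions of which 0 were called in all 6 libraries, and had a mean percentile of 60. The chain within Pde4b, a phosphodiesterase that degrades cyclic AMP, spanned 45.4 kb at chr4:102127512-102172944 and had a mean percentile of 56.5. By nearest start, Pde4b had 9 members of 70 regions, with 0 Th9-only and 1 Th17-only region (1.35% and 1.55% over all regions). The strongest member, with 83.8 and 82.8, is the one printed above. The chain by Fggy (43.6) was of middle strength, and those by St8sia4, a polysialyltransferase, and by Zbtb18, a zinc-finger repressor, were weak at 25.3 and 22.3. The remaining chain, at a group of olfactory receptor genes, had a mean percentile of 21.8. Chosen after their values were seen, the chain of 5 at chr4:32518985-32545536 lay in introns of Bach2, which encodes a repressor of effector T cell genes, although Gja10 had the nearest start. It held every region called there in any library, 5 of 5.

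By nearest start, 3727 protein-coding genes had at least 1 Th2-only region, of which 2472 had exactly 1 and 214 had at least 5. The largest counts were at genes beside long stretches with many regions. Kcnt2, a potassium channel gene, had 20 of 262 regions (7.63%), Pde4d, a relative of Pde4b, had 19 of 279 (6.81%), and B3galt2, a galactosyltransferase gene, had 18 of 287 (6.27%). St8sia4, Fam19a2 and Pla2g4a had 15 each, Zfp386 had 14, and Mef2c, Ttll7 and Brinp3 had 13. Their members were mostly weak, with mean percentiles of 23.3 at Kcnt2, 31.1 at Pde4d, 25.8 at St8sia4 and 25 at Brinp3. The highest of these means, 39.8 at Mef2c and 37.6 at B3galt2, were near the median over all members (39.2). The strongest member had a mean percentile of 84.5 at Mef2c and 80.1 at B3galt2. The other genes among the 20 with the most were Mei4, Fhit and Pcdh9 with 12 each, and Pik3r1, Zranb2, Cdh8, Adam6a, Adgrl4, Sel1l and Pcdh17 with 11 each.

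A few of these genes had strong members. At Fhit, a nucleotide hydrolase gene at a fragile site, 12 of 157 regions (7.64%) were members with a mean percentile of 65.6, all 12 in introns. By the same gene lay 11 Th17-only and 0 Th9-only regions, beside 1.55% and 1.35% over all regions. At Mei4 the 12 members of 91 regions (13.2%) had a mean percentile of 61.1, beside 6 Th17-only and 1 Th9-only region. At Pik3r1, which encodes regulatory subunits of PI3-kinase, 11 of 138 regions (7.97%) were members, with a mean percentile of 51.0. Its strongest member, 93.1 kb downstream of the nearest start, had 83.0 and 82.1, and an intronic one 21.6 kb downstream had 74.6 and 78.1, both with a GATA word. The 5 farthest upstream were weaker, with percentiles of 3.32 to 59.1.

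**Figure D4:**
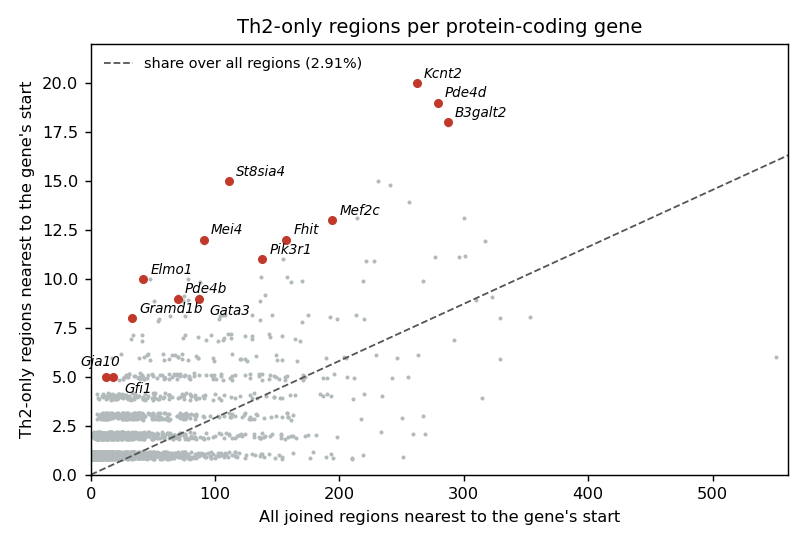
Each point is a protein-coding gene with at least 1 Th2-only region, placed by the number of all regions nearest to its start and the number that are Th2-only, with a small vertical offset so that points do not hide each other. The dashed line is the 2.91% of all regions. Kcnt2 has the highest count, 20 of 262, and Gja10, Gfi1, Gramd1b and Elmo1 lie high for few regions.

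Relative to the regions at hand, other genes stood out, and these were chosen after their values were seen. Elmo1, whose product activates the GTPase Rac, had 10 of 42 regions (23.8%), with a mean percentile of 64.9. It had 0 Th9-only and 0 Th17-only regions, which for so few regions is near the shares over all regions (1.35% and 1.55%). Its members lay from 51.9 kb upstream to 241 kb downstream of the nearest start, 9 of them inside the gene, and 4 held a GATA word and 4 an AP-1 word. The strongest, at chr13:20280372-20280978, reached percentiles of 78.9 and 87.2 with folds of 3.39 and 5.38. Gramd1b had 8 of 33 (24.2%), Babam2 had 6 of 17 (35.3%) and Gja10 had 5 of 12 (41.7%). Among all genes with at least 5 members, the median share was 6.46%.

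A further 5 genes were also chosen after their values were seen. Peli1, which encodes a ubiquitin ligase that restrains T cell activation, had 5 of 28 regions (17.9%). It had 0 Th9-only or Th17-only regions, which for so few regions is near the shares over all regions (1.35% and 1.55%). Its strongest, printed above, had 92.6 and 87.6, with folds of 5.81 and 5.48, and the intronic one 20.9 kb upstream of the nearest start had 72.2 and 68.1. The other 3 were at 50.8 or lower. Vav3, an exchange factor for small GTPases, had 9 of 74 regions, the strongest in an intron at 84.3 and 83.4 with an AP-1 word. Dock10, another exchange factor of that kind, had 6 of 45 and 0 Th9-only or Th17-only regions, also near those shares. Of the 6, an intronic region had 85.5 and 77.3, and one 5.82 kb upstream of the nearest start had 70.1 and 86.3 and held a GATA word. Klf6, a transcription factor gene, had 10 of 78, all of them intergenic and at least 79.9 kb from the nearest start, up to 78.7 and 83.4. Themis, which sets T cell receptor signalling in the thymus, had 5 of 35, 4 of which lay in introns of its neighbour Ptprk, with percentiles of 35.3 to 73.3.

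Gata3, the transcription factor that directs the Th2 programme, had 9 Th2-only regions of 87. It had 0 Th9-only and 5 Th17-only regions (1.35% and 1.55% over all regions). All 9 lay downstream of the start, 8 of them in the long intergenic stretch beyond the gene, at 62.3 to 923 kb. The closest, at chr2:9859996-9861297 in an intron 18 kb from the nearest start, had percentiles of 80.2 and 77.0 and held a GATA word. The next, 62.3 kb away, had 79.2 in both libraries and an AP-1 word, and is the one printed above. A region 307 kb downstream, at chr2:9571394-9571891, had 78.0 and 77.2 and held both words. One more, at chr2:9894360-9894665, was nearest to another start, 10.5 kb away, and had 78.7 and 70.8. It lay 4479 bp upstream of the upstream edge of the Gata3 gene record. That edge is not the start used for the distances above, since from it the region at 62.3 kb lies 73774 bp downstream. The weakest of the 9, 521 kb downstream, had 20.4 and 12.7.

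Gfi1, a transcriptional repressor known to favour growth of Th2 cells, had 5 Th2-only regions of 18 (27.8%). It had 0 of Th9 or Th17 only, which for so few regions is near the shares over all regions (1.35% and 1.55%). The strongest lay 29.8 kb downstream with percentiles of 80.3 and 71.9. The one at 33.5 kb upstream had 67.1 and 66.9 and held a GATA word, the one at 6.31 kb downstream touched an exon and had 58.9 and 45.2, and the pair at 23.8 and 27.2 kb upstream had 42.3 and 51.4, and 34.1 and 55.6. At this locus Th2 replicate 3 called all 18 regions and replicate 1 called 15, while the Th9 libraries called 7 and 9 and the Th17 libraries 7 and 6. The 5 members are part of these counts, and the rule itself places them in both Th2 libraries and in no other. Part of the difference was therefore fixed in advance. Of all 225467 regions, Th2 replicate 1 called 131406 and Th2 replicate 3 called 112504. The like counts for the Th9 and Th17 libraries are not given, so their calls at this locus have no background share beside them. On chromosomes 1 to 19 the Th9 lists held 136987 and 98200 peaks and the Th17 lists 120687 and 94854.

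**Figure D5:**
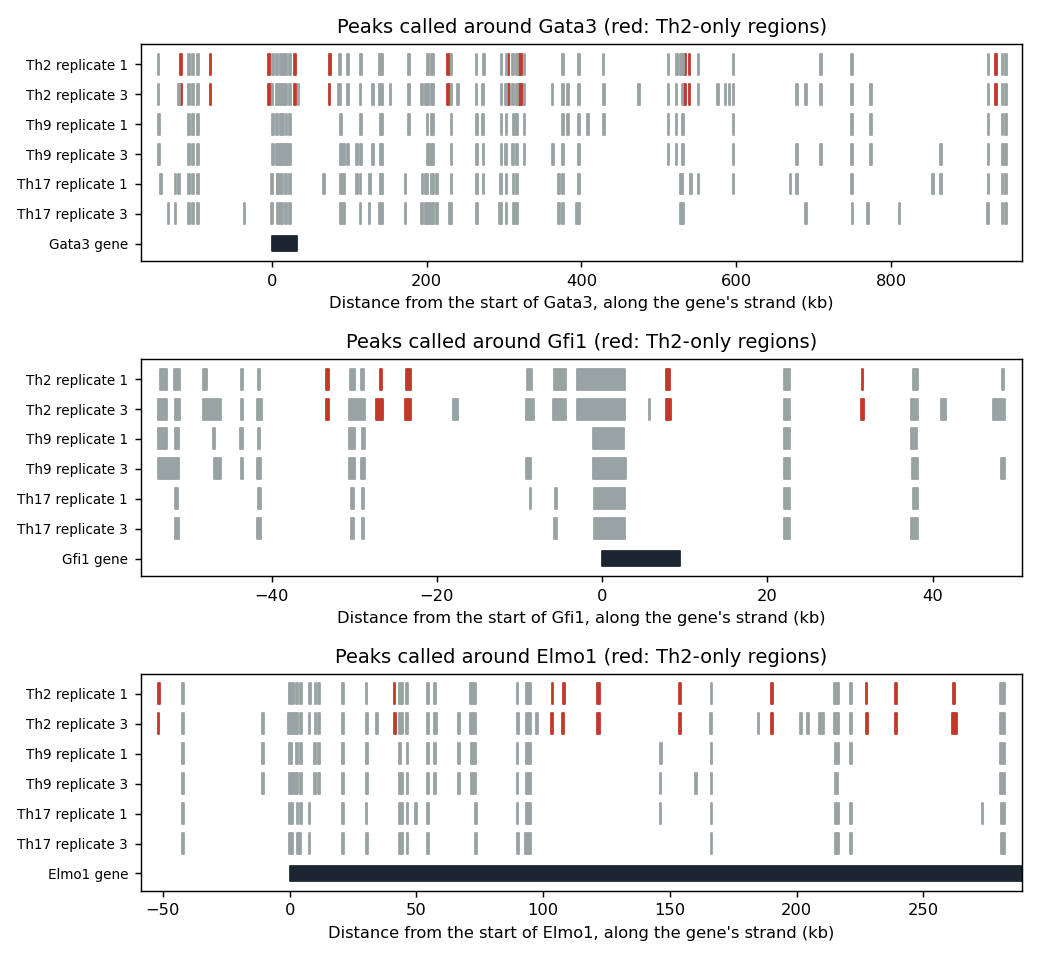
Each row is a library and each bar a called peak. Bars are placed by their distance in kb from the upstream edge of the gene record of Gata3, Gfi1 or Elmo1, along its strand. The Elmo1 gene runs on beyond the plot. Red bars are Th2-only regions, which appear in both Th2 rows and in no other. Gfi1 shows 5 and Elmo1 shows 10, and the Gata3 panel also holds some that are nearest to other starts.

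Most other genes of a list tied to Th2 cells had none. Within the gene body and 50 kb on either side, 9 of the 25 listed genes, Gata3 and Gfi1 included, had at least 1 member, and 14 of the 377 regions there were members (3.71%, beside 2.91% over all regions), with 5 Th9-only (1.33%) and 7 Th17-only (1.86%). Gata3 and Gfi1 held 8 of the 14, in 29 regions, and the other 23 genes held 6 of 348 regions (1.72%). These 2 genes had the most members of the list and were set apart after their values were seen. Such a split by itself lowers the share of the rest. The Il4 and Rad50 loci shared the single member at the Il13 promoter. Nfil3, a transcription factor gene, had 2, one of them 13.4 kb upstream at percentiles of 63.9 and 60, and Maf and Epas1, both transcription factor genes, and Il9r, the receptor of IL-9, had 1 each. Penk had 0 within 50 kb and 5 of 26 by nearest start, at 150 to 304 kb upstream. Penk encodes an enkephalin precursor. Of its 5, 4 had percentiles of 62.7 to 77.9, while the one 288 kb upstream had 17.5 and 0.477. By nearest start, 0 of its 26 regions were Th9-only or Th17-only, beside 1.35% and 1.55% over all regions.

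For 16 genes of IL-4 and IL-2 signalling, 7 of 269 regions were members (2.60%, near and below the 2.91% over all regions), with 2 Th9-only (0.743%) and 6 Th17-only (2.23%). Il4ra, which encodes the IL-4 receptor chain, had 1 at 35195 bp upstream with percentiles of 69.0 and 72.1 and both words, and 1 weak region (4.67 and 16.7) towards Il21r. Il2ra, the high-affinity IL-2 receptor chain, had 1 at 14426 bp upstream with 71.4 and 74.9 and 1 at 42466 bp downstream with 43.4 and 50.0. Jak1, Socs1 and Ptpn6 had 1 each.

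Lists of other programmes gave shares on either side of the 2.91% over all regions, with few members behind each. The lowest were 3 of 186 (1.61%) for Th1 genes and 3 of 182 (1.65%) for Th9 genes. The highest was 4 of 90 (4.44%) for natural killer and cytotoxic genes, where 6 regions (6.67%) were Th17-only. Among Th17 genes 8 of 290 regions (2.76%) were members and 15 were Th17-only (5.17%). Hif1a had 3 members, Il21r had 2, and Il17f, Il23r and Ccr6 had 1 each. Of the 2 at Il21r, 1 was the weak region also counted at Il4ra. Among genes of TGF-β signalling 5 of 213 (2.35%) were members, including a strong intronic region of Tgfbr1, which encodes a TGF-β receptor, at chr4:47407282-47407533 with 79.9 and 90.2. Among T cell identity genes 13 of 356 (3.65%) were members, 7 of them among the 69 regions in or near Bach2. There 1 region was Th9-only and 0 were Th17-only, beside 1.35% and 1.55% over all regions. Regulatory T cell genes gave 2.98% and B cell genes 2.97%. Myeloid genes gave 4 of 100 (4%) and mast cell and basophil genes 2 of 89 (2.25%), both at Cpa3, a mast cell protease gene with 4 regions in all. Whether cells of other types contributed those regions was not tested.

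The 10 strongest members were not at Th2 genes. After Grk5, a receptor kinase gene, came introns of Oxct1, an enzyme of ketone use (percentiles 93.8 and 92.5), and of Phip, with Irak1bp1 the nearest start (95.2 and 87.9). Next were an exon of Rictor, a subunit of mTORC2 (92.0 and 89.5), and sequence 4.54 kb upstream of Fam114a1 (91.3 and 89.2). An intron of Ap1s3 (90 and 90.5) and sequence beyond Peli1, a ubiquitin ligase gene (92.6 and 87.6), followed. The last 3 were an exon of Zbtb41 nearest to Aspm, sequence 61.8 kb upstream of Vmn2r87, and an exon of Smc5. Of the 10, 2 held a GATA word and 3 an AP-1 word. Over all members, 440 had at least 90% of the central 300 bp masked as repeat (6.71%), against 18.5% of the regions called in 2 libraries of different subsets. The share was 8.75% in Th9-only regions, 9.39% in Th17-only regions and 11.5% in regions called in all 6 libraries.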

How the data were processed

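Each deposited list held the peaks of 1 ATAC-seq library. Per the labels, the submitters' processing notes and the study's methods, the authors trimmed reads with Trim Galore 0.4.3, aligned them to mm10 with Bowtie2, removed duplicates with Picard and called broad peaks with MACS2 2.1.0 per library, without an input control. The authors deposited for each peak a linear ratio (fold enrichment against 1 genome-wide background) and significance as −log10 p and −log10 q values. The deposited display score was not used. Because every position was judged against 1 background, copies and repeats can be called as peaks. The lists carry no read counts. Some items are not reported here.

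Peaks were joined in Python 3.11.15 with pandas 2.3.3, and bedtools 2.31.1 gave the same 225467 regions. No peak passed the end of a chromosome of GRCm38.p6. Genes came from the basic set of GENCODE M21, with protein-coding starts. Fold enrichment was ranked within each list. Words were counted in the central 300 bp of each region. The steps were tested on made-up peaks with known answers. The members, the gene lists and the rule for named genes were chosen with earlier results of these data known. The rule took the 20 genes with the most members, the genes of the 10 strongest members and of the 5 longest chains, and the listed genes. Other genes are marked in the text as chosen after their values were seen. No comparison was tested, since regions are not replicates and each subset had 2 libraries.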

Additional observations from a re-analysis of the deposited data

How the results depend on the processing

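The number of Th2-only regions was within 1.5 times of 6561 with lists of equal length, with 50% of the region covered in Th2, with no Th9 or Th17 peak within 1000 bp and with chromosome X added. It was 3917 when every peak needed a −log10 q of 5 or more, 3379 with a fold of at least 2.2, 1645 with a fold of at least 4, and 59 with a fold of at least 4 in Th2 against any peak elsewhere. With a fold in Th2 at or above the lowest of every other list, an alternative chosen after seeing the data, it was 2645. In the same order of these 5 settings, the share with a GATA word was 33.5%, 35.5%, 31.7%, 40.7% and 37.0%, the share with an AP-1 word 31.2%, 31.8%, 33.9%, 37.3% and 33.2%, and the number of genes with at least 5 members 47, 38, 3, 0 and 25. The promoter share was 3.6%, 1.83%, 3.47%, 0% (0 of 59, which allows up to 5.08%) and 1.29%, and the next-door share 9.27%, 6.45%, 8.27%, 0% and 4.54%. Lists of equal length gave a promoter share of 1.63%, GATA 33.7%, AP-1 27.5% and 97 such genes. Coverage of 50% gave a next-door share of 4.80%, AP-1 26.1% and 111 such genes. A promoter of 2000 bp on either side gave 3.87%, and starts of all annotated genes gave 3.72%. Reading whole regions gave GATA in 46.5% and reading the letters backwards 24.7%. Counting by gene body with 50 kb on either side gave 106 genes with at least 5 members. AP-1, gene counts, held-out shares and reversed letters under alternatives were added after seeing the data.

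Leaving out each library in turn gave 7516 to 25288 regions, the highest 2 without Th2 replicate 1 (17825) and without Th2 replicate 3 (25288). Each omission drops a condition of the rule, so a rise in number was fixed in advance. The promoter share ran from 0.898% to 1.66%, GATA from 26.4% to 31.4%, AP-1 from 14.6% to 22.8%, the next-door share from 6.68% to 17%, and genes with at least 5 members from 267 to 1280. The next-door share was 14.4% without Th2 replicate 1 and 17% without Th2 replicate 3, and AP-1 was 14.6% without Th2 replicate 3. Genes with at least 5 members numbered 842 and 1280 without Th2 replicate 1 and 3, 382 without Th9 replicate 1 and 367 without Th17 replicate 1. The held-out Th2 share in replicate 3 was 73.8%, 45.9%, 71.2% and 40% under the q minimum, a fold of at least 2.2, a fold of at least 4 and equal lists, and in replicate 1 it was 37.1%, 49.9%, 50.2% and 39.2%. Of 300 member counts at the 20 genes with the most members under alternatives, 140 stayed within 1.5 times and 110 fell. The cause was not tested. No paired analysis was possible because no result comes from a test, although calls were read across replicate numbers in the held-out shares. The lists hold no read counts, so a region absent from a list cannot be told from 1 below its lowest fold.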
